A study of Homo sapiens with 4 samples.

Results

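The Sprouty genes SPRY1, SPRY2 and SPRY4, the SPRED genes SPRED1, SPRED2 and SPRED3, the ETS factor genes ETV1, ETV4 and ETV5, and PHLDA1 were followed in A549 cells treated with embelin. These 10 genes are commonly read as a record of signalling through the kinase ERK. ERK activity itself was not measured on the arrays. By Western blot, the paper reported less phosphorylated ERK in A549 cells at the same embelin dose and time. It reported more of the phosphorylated stress-activated kinases p38 and JNK. The probes of the 10 genes were chosen by the gene name printed on the array, or by a RefSeq transcript of the gene as the probe's accession, and not by any measured value. They came to 20 of the 50238 probes on the array, each spotted once, and to 10 of the 17649 genes or transcripts tested.

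Growth factor receptors pass their signal through RAS, RAF, MEK and ERK. ERK activity raises the transcription of genes that carry the response and of genes that restrain it. Sprouty and SPRED proteins belong to the restraining set: they act on receptor adaptors, RAS and RAF, and the SPREDs recruit neurofibromin, which switches RAS off. ETV1, ETV4 and ETV5 form the PEA3 group of ETS transcription factors. Their genes are held down by the repressor capicua until ERK relieves it, and their proteins are removed through the ubiquitin ligase COP1. PHLDA1 encodes a small protein with a pleckstrin homology-like domain that is induced by growth factors and by several kinds of cell stress.

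A549 is an established human lung adenocarcinoma line. RNA was taken after 4 h from 2 control samples labelled untreated, given as 0 µM embelin, and from 2 samples given 15 µM embelin, a benzoquinone from the fruit of Embelia ribes. All 4 had been moved to medium with reduced serum before treatment, and each was hybridised to 1 single-colour Agilent array on 1 slide. The question put to the arrays was which pathways respond at a time when cell death has begun. Nothing in the labels says that the replicates were separate cultures, so the p-values given here measure only the spread between these samples, which may be technical. Whether a vehicle was given to the controls is not stated in the labels.

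The arrays differed in quality in a way that cut across the groups. Control replicate 1 and embelin replicate 2 had 66.7% and 66.4% of probes well above background, whereas control replicate 2 and embelin replicate 1 had 50.3% and 51.2%. The scanner software marked 47 and 87 spots as outliers on the former pair and 296 and 743 on the latter. Values are also given below within each of these pairs, because each holds 1 control and 1 embelin array. All 10 epithelial and A549 markers were well above background on every array, with summed levels of 19.51 to 19.73 on the normalized log2 scale. Of the markers of other cells, 0 of 4 endothelial, 1 of 5 fibroblast (COL1A1) and 1 of 5 leukocyte markers (CD14) were well above background on all 4 arrays, and CDH5, PDGFRB, DCN and LYZ were among those that were so on none. COL1A2, COL3A1 and PTPRC were well above background on embelin replicate 1 alone, at 8.30, 8.86 and 7.57. KDR was so on control replicate 2 alone, at 6.15. The summed fibroblast markers stood at 6.81 and 7.03 in the control arrays, at 9.96 in embelin replicate 1 and at 7.86 in embelin replicate 2. The part of these markers in the results was not tested.

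The probes of PHLDA1, SPRY1, SPRY2, ETV1 and ETV5 are shown by the first 30 of their 60 bases. Each value below is the hybridisation to 1 such oligonucleotide, and several genes had probes that differed in their change. SPRED2 is not shown, although its difference was larger than that of either ETV5 probe. Probes are numbered within a gene from the brightest. Where in its transcript each probe lies was not determined here.
PHLDA1 probe 1: aaagggcggtggaggggaaaacattaagaa
PHLDA1 probe 2: tacaggatctaaaagggttttcttagaaag
PHLDA1 probe 3: tggactgtgtggagcgcaagggcaagtaca
PHLDA1 probe 4: agtggctctattctacctgtaagaaaatga
SPRY1: ctcaagttgatatttatagctgatcaatct
SPRY2: agaacttggtgacccatgtattgcataagc
ETV1 probe 1: tacaacgaaggctacgtgtattaacacaag
ETV1 probe 2: taccgtggctattgtttatggattcatatg
ETV5 probe 1: agaagggctctgatttgcacaatttgttga
ETV5 probe 2: tttatagctttcttaacctacacatagtct
No pair of the 20 member probes shared a run of 15 bases, so the members' values did not come from a shared stretch of that length.

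The members differed in direction. PHLDA1 rose, and it alone of the 10 passed an adjusted p of 0.05 in limma's test over all genes. SPRY1 and SPRED1 were higher and SPRY2, SPRED2 and ETV1 were lower in both embelin arrays than in both control arrays, with adjusted p above the threshold. With PHLDA1, 3 of 10 members lay apart and higher and 3 lay apart and lower. These shares were near the 21.1% and 30.7% of genes measured on every array. SPRY4, SPRED3, ETV4 and ETV5 overlapped between the groups at their brightest probes. Among all genes tested, 1.25% were called higher and 0.561% were called lower, against 1 and 0 of the 10 members. In bulk RNA, fewer cells expressing a gene and less RNA per cell cannot be told apart.

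**Figure D1:**
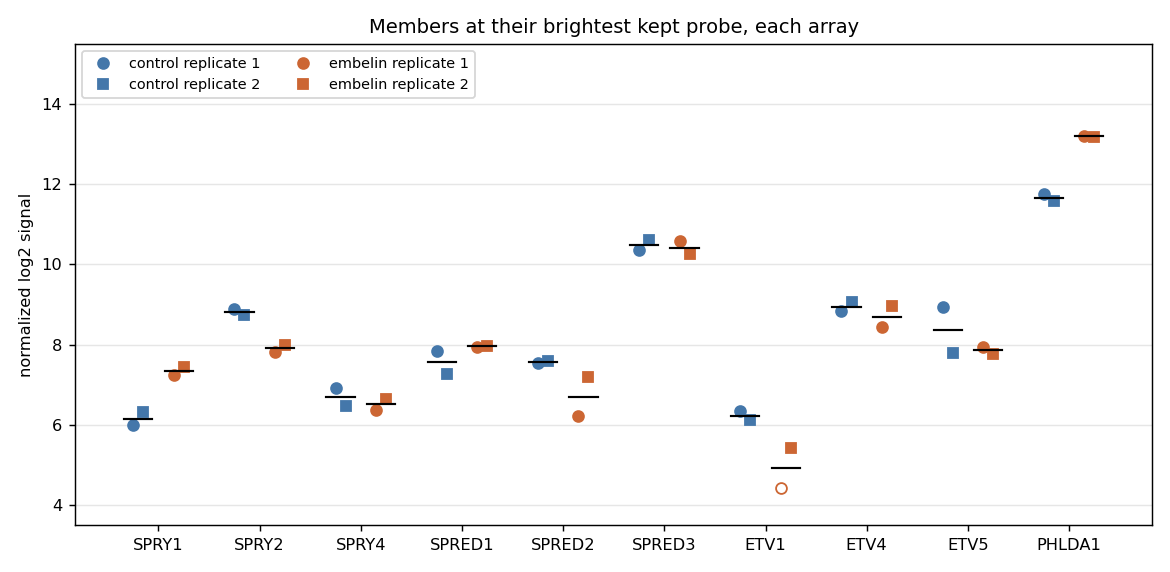
Normalized log2 signal (y axis) of the 10 members at their brightest kept probe, with 1 point per array, controls in blue and embelin in orange, and a black line at each group mean. An open point was not well above background. PHLDA1 stood at 11.75 and 11.58 in control against 13.22 and 13.17 in embelin, whereas SPRY4, SPRED3, ETV4 and ETV5 overlapped. Heights of different genes are not comparable.

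PHLDA1, induced by ERK activity and by stress, had the largest rise of the members. At its brightest probe the normalized log2 signal was 11.75 and 11.58 in the control arrays and 13.22 and 13.17 in the embelin arrays. The groups lay far apart, and the replicates of each group lay close together. The difference was 1.53 on the log2 scale (SE 0.168, 95% interval 1.07 to 1.99, n = 2 per group), a 2.89-fold higher signal, with an adjusted p of 0.0458 in limma. In all, 601 of the genes tested had a larger rise. Within the pair of arrays with more probes above background the difference was 1.42, and within the other pair 1.64. The call was not stable. It held under 4 of 17 alternative settings, and the difference was 1.44 to 1.62 when each array was left out in turn. No gene at all was called without the filter on dim probes, or by the methods' t-test after adjustment. The same held with the replicate number, slide position or array background as a term. Under those settings the loss of the call was shared with every gene. With any 1 array left out, limma called none of the genes tested.

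All 4 PHLDA1 probes were well above background on every array and higher in both embelin arrays than in both controls, but not by the same amount. Probe 2 read 10.01 and 10.04 in control and 10.43 and 10.47 in embelin, a difference of 0.42 (95% interval -0.05 to 0.89). Probe 3 read 7.76 and 8.72 in control and 9.47 and 9.81 in embelin, a difference of 1.40 (95% interval 0.35 to 2.44). Probe 4 read 7.51 and 7.85 in control and 9.05 and 9.34 in embelin, a difference of 1.52 (95% interval 0.89 to 2.14). Adjusted over all kept probes, limma's p was 0.318, 0.186 and 0.0747 for probes 2, 3 and 4. The change at probe 1 exceeded that at probe 2 by 1.11 on the log2 scale. The signal of probe 1 minus that of probe 2 was 1.74 and 1.53 in the controls and 2.79 and 2.70 with embelin, so the gap was wider in both embelin arrays. This difference between probes was not tested, and the transcripts that each probe detects were not determined here.

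**Figure D2:**
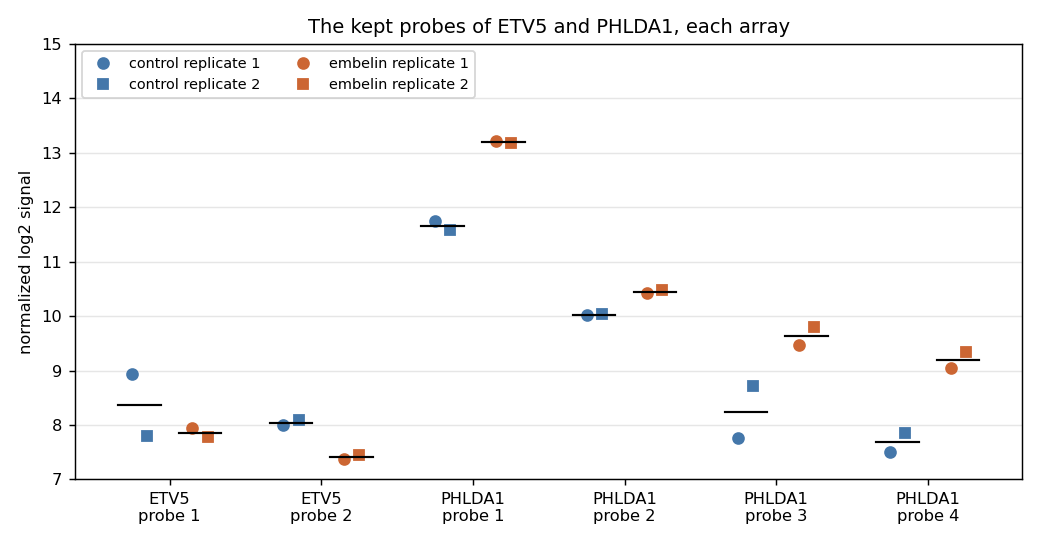
Normalized log2 signal (y axis) of the 2 ETV5 probes and the 4 PHLDA1 probes on each array, controls in blue and embelin in orange, with a black line at each group mean. The 4 PHLDA1 probes were all higher with embelin, by 0.42 to 1.53, and the spread of ETV5 probe 1 lay in the controls (8.94 and 7.80).

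Among the Sprouty genes, whose products restrain receptor signalling to RAS and RAF, SPRY1 and SPRY2 had differences of opposite sign. SPRY1 read 5.99 and 6.31 in control and 7.24 and 7.43 with embelin. Both embelin arrays were higher than both controls, by 1.18 on average (SE 0.202, 95% interval 0.63 to 1.73), a 2.27-fold higher signal with an adjusted p of 0.0810 in limma. The difference was 1.43 in the pair of arrays with more probes above background and 0.93 in the other pair. SPRY1 was well above background on all 4 arrays but dim, and with normexp background correction the difference was 0.76. When testing was limited to genes well above background on all 4 arrays, limma gave SPRY1 an adjusted p of 0.0425. The other 16 alternatives gave an adjusted p of 0.0882 to 0.480, so that SPRY1 was called under 1 of 17.

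SPRY2 read 8.88 and 8.73 in control and 7.83 and 7.99 with embelin. Both embelin arrays were lower, by 0.90 on average (SE 0.174, 95% interval -1.37 to -0.42), a 1.86-fold lower signal with an adjusted p of 0.0991 in limma. Its difference was nearly the same in the pair of arrays with more probes above background (-0.89) and in the other pair (-0.90). SPRY4 read 6.90 and 6.47 in control and 6.38 and 6.65 with embelin, so that the groups overlapped. Its difference of -0.18 had a 95% interval of -0.82 to 0.47, which spans 0, and it was -0.25 and -0.10 within the same pairs.

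The SPRED genes, relatives of the Sproutys that bring neurofibromin to RAS, gave no call. SPRED1 read 7.84 and 7.28 in control and 7.95 and 7.97 with embelin. Both embelin arrays were above both controls, but the controls differed from each other by more than the groups did. The difference was 0.40 (95% interval -0.28 to 1.09, adjusted p = 0.452 in limma). It was 0.13 in the pair with more probes above background and 0.68 in the other pair, and leaving out control replicate 2 gave 0.12 while leaving out control replicate 1 gave 0.68. Its other probe read 6.26 and 4.79 in control and 5.85 and 6.83 with embelin, was well above background only on control replicate 1 and embelin replicate 2, and was not tested.

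SPRED2 read 7.54 and 7.59 in control and 6.22 and 7.19 with embelin. Both embelin arrays were lower, although they differed from each other by more than the groups did. The difference was -0.86 (SE 0.372, 95% interval -1.88 to 0.16, adjusted p = 0.316 in limma), and it was -0.37 without embelin replicate 1, -1.35 without embelin replicate 2 and -0.49 with normexp background correction. It was -0.35 in the pair with more probes above background and -1.37 in the other pair. Its other probe was not well above background on any array. SPRED3 read 10.35 and 10.60 in control and 10.58 and 10.26 with embelin at its brightest probe. These values overlapped, and the difference of -0.06 had a 95% interval of -0.64 to 0.52, with -0.10 and -0.03 within the pairs. A second SPRED3 probe read 5.11 in control replicate 1 and 3.99 and 4.59 with embelin, with control replicate 2 left out as an outlier spot. The software called that left-out spot well above background, and the probe was kept through it. The remaining SPRED3 probe read 5.46 and 4.37 in control and 5.27 and 5.23 with embelin. It was well above background only on control replicate 1 and embelin replicate 2, and was not tested.

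**Figure D3:**
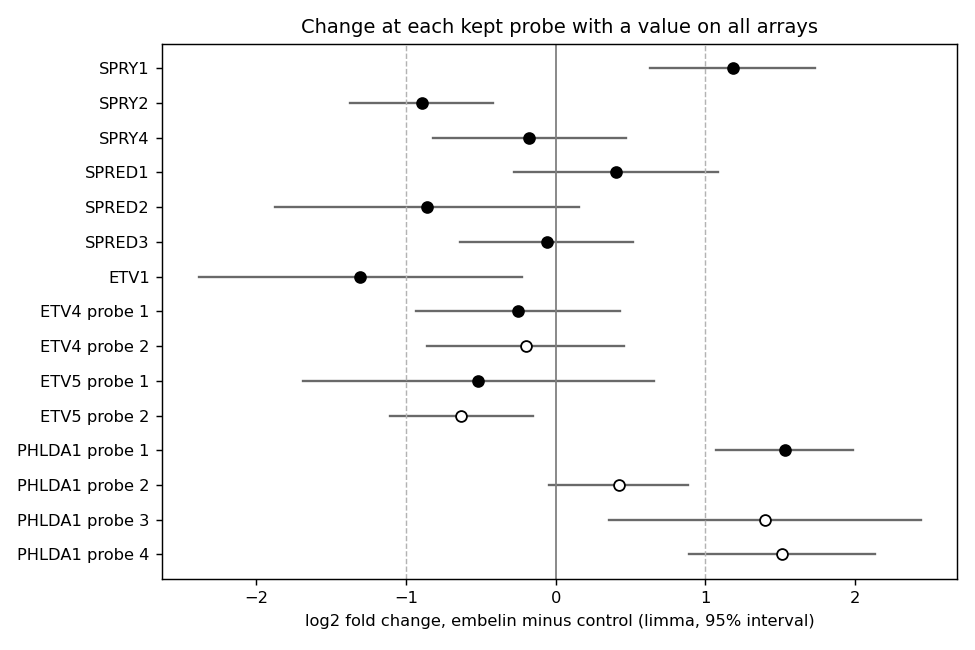
Log2 fold change, embelin minus control (x axis), with its 95% interval from limma, for the 15 member probes that were kept and had a value on all 4 arrays. Filled points are the probes that stood for their gene, and dashed lines mark a 2-fold change in either direction. The intervals of SPRY1, PHLDA1 probes 1, 3 and 4, SPRY2, ETV1 and ETV5 probe 2 did not include 0.

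The PEA3 factors, transcription factors whose genes respond to ERK through capicua, had negative differences over all 4 arrays at their brightest probes, but those of ETV4 and ETV5 were positive within 1 of the pairs of arrays, and none was called. ETV1 read 6.35 and 6.11 in control and 4.41 and 5.43 with embelin. Both embelin arrays were lower, and embelin replicate 1 was not well above background, so the filter kept the probe through the controls alone. The difference was -1.31 (SE 0.395, 95% interval -2.39 to -0.23) with an adjusted p of 0.197 in limma, and it rests in part on that dim value. It was -0.92 in the pair with more probes above background and -1.69 in the other pair. The second ETV1 probe read 5.83 and 5.79 in control and 3.95 and 4.83 with embelin, again with both embelin arrays lower. It was well above background only on control replicate 1 and embelin replicate 2, and was not tested. The size of the ETV1 difference depended on the background correction, since it was -0.49 after normexp, and on the array left out, since it was -0.80 without embelin replicate 1 and -1.82 without embelin replicate 2.

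ETV4 read 8.83 and 9.07 in control and 8.44 and 8.95 with embelin at probe 1. Probe 2 read 8.46 and 8.54 in control and 8.05 and 8.55 with embelin. Both probes overlapped between the groups, with differences of -0.25 (95% interval -0.93 to 0.43) and -0.20 (95% interval -0.86 to 0.46). On both probes embelin replicate 1 was the lowest of the 4 arrays. The pair with more probes above background gave 0.12 and 0.09 at probes 1 and 2, and the other pair gave -0.62 and -0.49, so that the sign differed between the pairs.

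ETV5 gave different pictures at its 2 probes. Probe 1 read 8.94 and 7.80 in control and 7.94 and 7.77 with embelin, so that control replicate 1 stood above the other arrays, and the difference was -0.52 (95% interval -1.69 to 0.66). Without that control array it was 0.056, and it was -1.17 in the pair with more probes above background and 0.14 in the other pair. Probe 2 read 7.99 and 8.09 in control and 7.37 and 7.45 with embelin. Here the groups did not overlap and the replicates lay close together, with a difference of -0.63 (SE 0.178, 95% interval -1.11 to -0.15) and an adjusted p of 0.191 over all kept probes in limma. Within the pairs it was -0.54 and -0.72. Probe 1 stood for the gene because its mean signal was higher.

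At a 2-fold change with an unadjusted p under 0.05 in limma, SPRY1 and PHLDA1 were higher and ETV1 was lower, 2 and 1 of 10 members against 4.27% and 3.99% of all genes. The filter on dim probes kept ETV1 only through the control arrays, where it was higher. With testing limited to genes well above background on all 4 arrays, 2 of 9 members were higher and 0 lower. Of all 15542 genes tested in that way, 559 were higher and 517 lower. Groups that did not overlap were found for 3 members higher (SPRY1, SPRED1 and PHLDA1) and 3 lower (SPRY2, SPRED2 and ETV1), whereas among genes measured on every array 21.1% were apart and higher and 30.7% were apart and lower. The shares of members apart were thus near those of all genes. The median difference was -0.21 over the members and -0.06 over all genes tested.

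**Figure D4:**
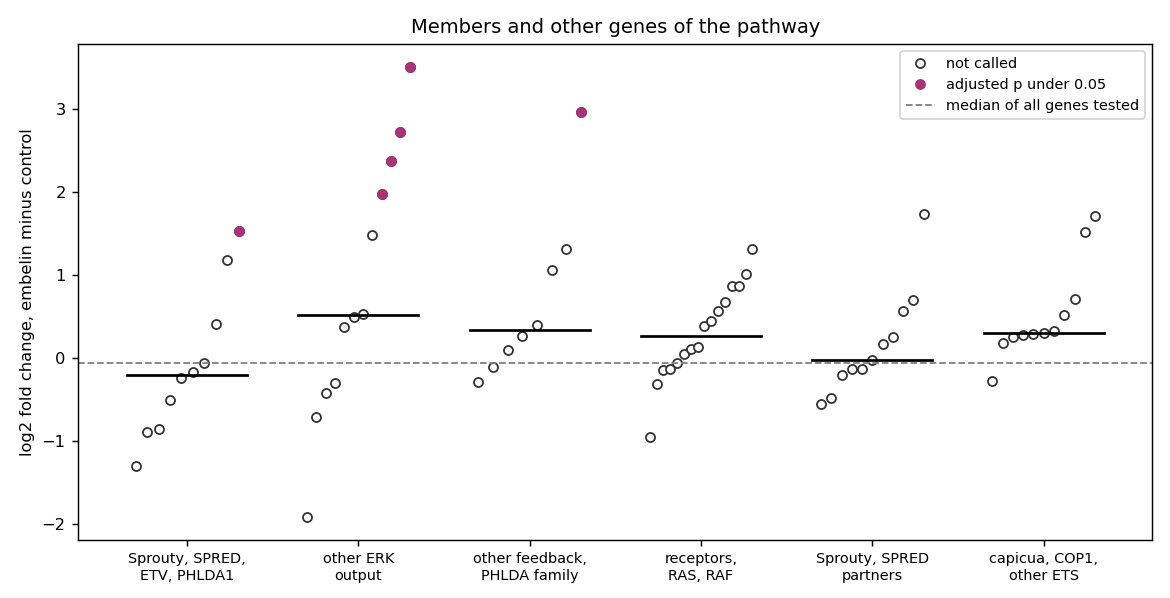
Log2 fold change, embelin minus control (y axis), of each tested gene of the members and of 5 other pathway lists, with the list's median as a black line and the median of all genes tested (-0.06) as a dashed line. Filled points had an adjusted p under 0.05 in limma, and the 6 of them lay among the members, the other ERK output genes and the other feedback genes, all above 0.

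Of 12 other genes that ERK is known to induce, all were tested, 4 were called higher and 0 lower, against 1.25% and 0.561% of all genes, and the median difference was 0.51. This list and those below were chosen with earlier results of these data known, so such shares are no test of a list. EGR1, an immediate early transcription factor, read 6.09 and 5.98 in control and 9.79 and 9.30 with embelin, a rise of 3.51 (adjusted p = 0.0233 in limma). In control 1 of 2 arrays was well above background for EGR1, so the filter on dim probes kept it through the embelin arrays alone. DUSP5, a nuclear phosphatase of ERK, rose by 2.72 (adjusted p = 0.0223 in limma), and FOSL1, a partner in AP-1, rose by 2.37 (adjusted p = 0.0246 in limma). IER3, the other called gene, rose by 1.97 (adjusted p = 0.0451 in limma) and is named outside the rule for named genes, after its value was seen. The differences of 4 other genes of the list were negative, and they too are named after their values were seen. They were -1.92 for the receptor EPHA4, for which embelin replicate 1 was left out as an outlier, -0.72 for the cyclin CCND1, -0.43 for the ERK phosphatase DUSP6 and -0.31 for the transcription factor MYC, with adjusted p of 0.186 to 0.613 in limma. Both embelin arrays were lower than both controls for CCND1 and DUSP6, and the groups overlapped for MYC. The difference between the members and this list was not tested. Whether ERK or another kinase raised the called genes was not tested either. By Western blot, the paper reported less phosphorylated ERK and more phosphorylated p38 and JNK with embelin.

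Of 8 other feedback inhibitors and PHLDA1 relatives, 1 was called higher and 0 lower, against 1.25% and 0.561% of all genes. The median difference was 0.33. The called gene was ERRFI1, an inhibitor of the EGF receptor, which read 12.76 and 12.73 in control and 15.79 and 15.61 with embelin (adjusted p = 0.0204 in limma). PHLDA2, a PHLDA1 relative, was higher by 1.06 (adjusted p = 0.0666 in limma), and RASA2, which switches RAS off, was higher by 1.31 (adjusted p = 0.263 in limma) and was well above background on 1 of 2 control arrays.

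The remaining lists gave no call. Among growth factor receptors, RAS and RAF, 16 of 18 genes were tested, with a median difference of 0.26. The largest differences were 1.32 for the RAS activator SOS1, 1.00 for the receptor FGFR1 and -0.96 for the receptor FGFR3, with adjusted p of 0.0976 to 0.370 in limma, and SOS1 was well above background on 1 of 2 control arrays. Among the proteins that bind or modify Sprouty and SPRED, all 11 genes were tested, with a median of -0.03. The largest differences were 1.73 for SIAH2, a ubiquitin ligase that acts on Sprouty proteins, 0.70 for the kinase TESK1 and 0.57 for the ubiquitin ligase NEDD4, with adjusted p of 0.0928 to 0.250 in limma. GRB2 belonged to both of these lists. Among capicua, COP1 and the other ETS factors, 11 of 13 genes were tested, with a median of 0.29, and the largest differences were 1.70 for ETS1, 1.52 for ELK3 and 0.70 for ETS2, with adjusted p of 0.108 to 0.161 in limma.

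The promoters of PHLDA1, SPRY1 and ETV1 are shown because these members had the largest differences. The windows are those of the RefSeq table for GRCh38.p14, which holds 250 bases before and 50 after each gene's start, and 8 of 10 members matched an entry. ETV4 and ETV5 did not. Each is printed 5′ to 3′ on the gene's own strand up to the gene's start or the end of a match that crosses it, with matches to the searched motifs in capitals.
PHLDA1, chr12:76031774-76032026, minus strand: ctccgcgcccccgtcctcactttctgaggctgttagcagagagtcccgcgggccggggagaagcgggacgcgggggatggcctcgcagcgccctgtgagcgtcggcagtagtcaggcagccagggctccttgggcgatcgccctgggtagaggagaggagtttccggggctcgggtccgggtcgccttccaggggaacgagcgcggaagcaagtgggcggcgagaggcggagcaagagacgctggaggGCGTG
SPRY1, chr4:123396545-123396794, plus strand: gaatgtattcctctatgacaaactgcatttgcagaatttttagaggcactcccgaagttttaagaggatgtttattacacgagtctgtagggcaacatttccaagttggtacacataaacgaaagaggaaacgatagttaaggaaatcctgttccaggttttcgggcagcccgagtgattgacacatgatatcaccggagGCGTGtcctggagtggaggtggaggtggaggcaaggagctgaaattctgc
ETV1, chr7:13990703-13990952, minus strand: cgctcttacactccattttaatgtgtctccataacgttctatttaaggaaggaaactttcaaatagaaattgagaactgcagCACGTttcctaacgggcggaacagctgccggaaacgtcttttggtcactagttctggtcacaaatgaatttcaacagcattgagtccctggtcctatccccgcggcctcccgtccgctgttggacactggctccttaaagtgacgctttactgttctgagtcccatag

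Motifs of 6 kinds were searched on both strands of the whole windows, chosen after the members' values were seen. The core of the hypoxia response element (ACGTG or GCGTG) was found in 4 of the 8 member windows, those of PHLDA1, SPRY1, ETV1 and SPRED2, and in 48.4% of 27305 human windows, so that its share was near that of all genes. The capicua octamers (TGAATGAA, TGAATGGA, TCAATGAA or TCAATGGA) were found in SPRED3 only among the members, and in 3.86% of all windows. The AP-1 site (TGACTCA or TGAGTCA) was likewise found in SPRED3 only, and in 4.92% of all windows. No member window held the ETS site CCGGAAGT, the cyclic AMP response element TGACGTCA or the paired heat shock unit GAANNTTC, which were found in 4.43%, 1.98% and 6.87% of all windows. A match is a description of the letters in the window, and binding was not measured in these data.

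**Figure D5:**
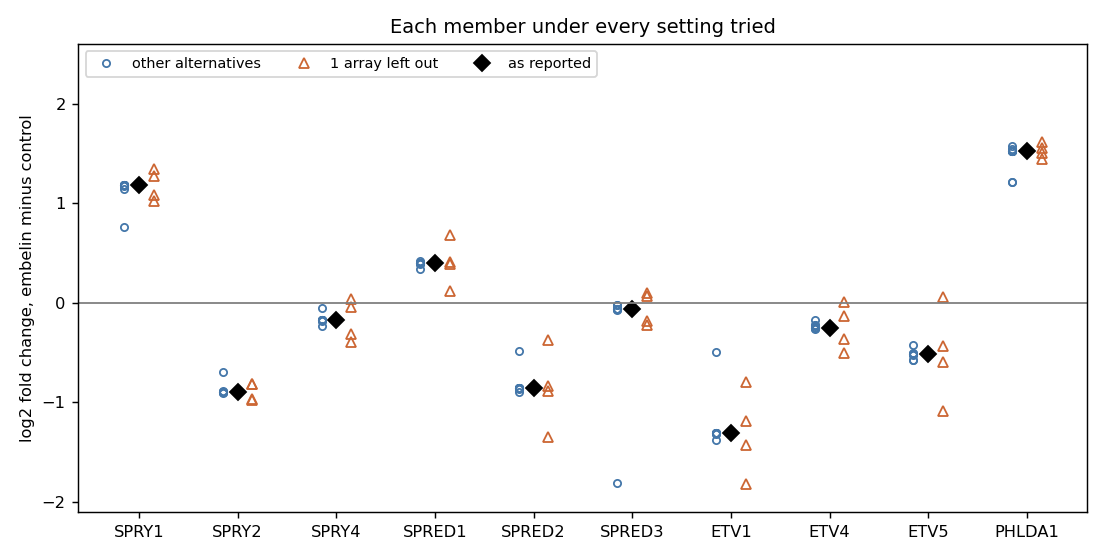
Log2 fold change, embelin minus control (y axis), of each member as reported (black), with 1 array left out (orange triangles) and under the other alternative settings (blue circles). PHLDA1, SPRY1 and SPRED1 stayed above 0 and SPRY2, SPRED2 and ETV1 below 0 wherever they were tested. The groups of these genes did not overlap, so leaving out 1 array could not change their sign. The low point of SPRED3 (-1.81) is a mean that takes in a probe with no value on control replicate 2.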

How the data were processed

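The authors deposited the Cy3 intensities of 4 arrays written by Agilent's Feature Extraction software (per the file headers, version 10.7.3.1), background-subtracted and not normalized between arrays. Per the paper's methods, the authors used a 75th percentile shift and Student's t-test with a 2-fold threshold. Here each array was scaled to a common 75th percentile of 675, given a floor of 1 and log2-transformed. Outlier spots were left out, spots of a probe were averaged, and probes well above background on both arrays of a group were kept, 26145 in all, 16 of them of the members. The brightest kept probe stood for a gene. Embelin was compared with control by limma 3.58.1 in R 4.3.3 (prior degrees of freedom 2.17), with Benjamini-Hochberg adjustment over 17649 genes, after a test on simulated data. With 2 arrays per group an exact permutation test cannot go below 0.333. The number of arrays limits the precision, and a median gene had a residual SD of 0.21.

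The members, lists, tests and motifs were chosen with earlier results of these data known. Of each pathway list, the genes named were the called ones with the 3 largest changes, or where fewer than 3 were called the largest changes up to 3. The alternatives tried were normexp background correction (offset 50), 2 other filters, the authors' value table, quantile normalization, eBayes with a trend and robust fitting, the methods' t-test, the replicate number and slide position as terms, the mean over probes, each probe on its own, and leaving out each array. A block for the arrays' background, and a mean over probes with a value on every array, were added after values were seen.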

Additional observations from a re-analysis of the deposited data

How the results depend on the processing

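Limma called 320 genes, of which 1 was a member. The number of genes was 736 with normexp, 764 when all 4 arrays had to be well above background, 1061 with trend and robust, and 159 with the deposited table, and the members called were 1, 2, 1 and 0. No gene and no member (0) was called by limma without a filter on dim probes, with slide position, with the array background as a block, or, at a lowest and highest of 0, with any 1 array left out, nor by the methods' t-test after adjustment. The counts at a 2-fold change and unadjusted p were then 782 higher and 718 lower without the filter and 529 and 474 by the t-test. With the replicate block the count of genes and of members was 0 (909 higher and 789 lower at 2-fold and unadjusted p), and PHLDA1 had an adjusted p of 0.0891. Same-numbered arrays deviated together with a correlation of 0.18 over 17298 genes, and nothing in the labels pairs them. No member (0) was called with a mean over probes or with each probe on its own.

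The PHLDA1 difference was 1.22 to 1.62 over all 17 alternatives, with adjusted p of 0.004 to 0.400. SPRY2 was -0.98 to -0.70 and SPRY1 0.76 to 1.34. Alternatives that changed only the filter, the test or a term of the fit left the differences of these genes as reported above. Those alternatives therefore do not bear on the stability of their size. With 1 array left out, 4 members crossed 0: SPRY4 (-0.39 to 0.040), SPRED3 (-0.22 to 0.099, with 0.065 without control replicate 2), ETV4 (-0.50 to 0.0037) and ETV5 (-1.09 to 0.056). The mean over all kept probes gave SPRED3 -1.81, because 1 probe has no value on control replicate 2, and -0.06 over probes with a value on every array. ETV1 was not tested where all 4 arrays had to be well above background. A lone array was assumed to vary like those of the other group. The cause of the other changes was not tested.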
